A study of Mus musculus with 28 samples.

Results

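The retrotransposons described here are LINE-1 (L1) integrants that the mm9 repeat track counted by the authors names L1Md_T or L1Md_Gf, and they were chosen by that name alone. The track held 24214 of them among 3404964 transposable element (TE) integrants, 23200 of L1Md_T and 1014 of L1Md_Gf. At least 1 uniquely mapped RNA-seq read fell on 15729 of the 24214. An integrant was tested when its reads summed to 16 or more over the 16 RNA libraries, which left 6515 of L1Md_T and 305 of L1Md_Gf, or 6820 of the 123880 TE integrants tested. These 6820 carried 578177 reads, 93.3% of all reads on both subfamilies, so the untested integrants were many but held few reads.

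RNA was sequenced from naive mouse embryonic stem (ES) cells cultured with 2i and LIF. The labels give the J1 line (strain 129S4/SvJae) for all of them, while the paper obtained both mutant lines from other groups. The cells were wild type (WT), knocked out for the DNA methyltransferases Dnmt1, Dnmt3a and Dnmt3b (DNMT TKO), or knocked out for the 5-methylcytosine dioxygenases Tet1, Tet2 and Tet3 (TET TKO). All were transduced with a lentiviral vector that was empty (shEmpty) or carried a hairpin against Kap1 (shKAP1), selected with puromycin and collected 5 days later. Each hairpin had 3 libraries of WT, 3 of DNMT TKO and 2 of TET TKO. Each genotype was a single line and the mutant lines came from other laboratories, so genotype cannot be told apart from other differences between lines. The study's methods describe the replicates as independent experiments, and the labels do not say how they were separated. The mm9 reference is of another strain than the labels give. Whether the lines share a strain, and whether each annotated integrant is present in each line, was not tested. Libraries held 18108431 to 29373696 reads on genes and 898152 to 1803819 on TEs.

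A full-length mouse L1 starts with a 5′ untranslated region that acts as its promoter, followed by the open reading frames of an RNA-binding protein and of a protein with endonuclease and reverse transcriptase activity. Most copies are truncated at their 5′ end during insertion and so lack the promoter. L1Md_T and L1Md_Gf belong to the young L1 subfamilies of the mouse, which still hold copies able to move, and their promoters consist of repeated units named monomers. In ES cells such promoters can be silenced by KAP1 (encoded by Trim28), which is brought to DNA by KRAB zinc finger proteins and recruits SETDB1 for the methylation of H3K9, and by methylation of their CpG dinucleotides. H3K4me3 marks active promoters, and TET enzymes oxidise 5-methylcytosine to 5-hydroxymethylcytosine (5hmC).

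Motif windows of the 5′ end are shown because the presence of these letters, and the letters beside them, went with H3K4me3 and with the difference between DNMT TKO and WT cells. Each is printed 5′ to 3′ on the strand of the element, from the mm9 (NCBIM37) reference, and capitals mark GCCATCTT, the letters known to be bound by the transcription factor YY1. The windows come from the most-read L1Md_Gf of 5 kb or more with H3K4me3, chr14:41359893-41366432, and from the named L1Md_T of 5 kb or more that stood furthest below WT in DNMT TKO cells, chr15:71480785-71486541. The L1Md_T integrant was thus chosen for its drop. Both lie on the plus strand, and the second is on the opposite strand within Fam135b.
L1Md_Gf, chr14:41359933-41359962, plus strand: cacagcaggtcGCCATCTTggtccgggacc
L1Md_Gf, chr14:41360145-41360174, plus strand: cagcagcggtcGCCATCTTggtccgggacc
L1Md_T, chr15:71480889-71480918, plus strand: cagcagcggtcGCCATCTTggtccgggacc

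The second window of the L1Md_Gf integrant and the window of the L1Md_T integrant had the same letters, 212 bp downstream of the first in the L1Md_Gf. Across L1Md_T of 5 kb or more the first 300 bases held 3660 copies of the motif far enough from their ends for such a window, and the 4 commonest windows around it were these.
Motif window 1: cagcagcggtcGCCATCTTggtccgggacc
Motif window 2: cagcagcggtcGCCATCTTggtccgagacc
Motif window 3: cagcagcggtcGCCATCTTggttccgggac
Motif window 4: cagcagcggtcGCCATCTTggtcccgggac

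Window 1 made up 37.0% of the copies in L1Md_T and 37.1% of the 97 in L1Md_Gf, and windows 2, 3 and 4 made up 10.8%, 9.64% and 5.36% in L1Md_T. All 4 held 3 CpG, the dinucleotide that DNMT enzymes methylate.

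Length and chromatin split the members unevenly. Of 5121 integrants of 5 kb or more, 4347 (84.9%) passed the filter on reads, against 2473 of 19093 shorter ones (13.0%). Among those tested, 2240 of 6515 L1Md_T (34.4%, exact 95% interval 33.2 to 35.6) and 158 of 305 L1Md_Gf (51.8%, 46.0 to 57.5) overlapped a deposited H3K4me3 region by at least 1 bp. With only peaks above the median score in both replicates these shares were 14.9% and 24.6%, and over all integrants, tested or not, 12.1% and 27.7%. With all peaks the share was 7.20% of all tested TEs, 21.3% of those of 5 kb or more and 0.864% of L1Md_A of 5 kb or more, another young L1 subfamily. The TEs of 5 kb or more include the members, which made up 2225 of the 2482 with the mark. Of tested members of that length 51.2% had it. L1Md_T of 5 kb or more fell into 2157 with and 2090 without H3K4me3, and the shorter ones into 83 and 2185. For L1Md_Gf these numbers were 68, 32, 90 and 115. A higher read count went with the mark, since the median L1Md_T of 5 kb or more held 73 reads with H3K4me3 and 47 without. The peaks came from WT cells and say nothing of the mutant lines.

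The mark sat at the 5′ end. For the 2563 L1Md_T of 5 kb or more that overlapped an H3K4me3 region, tested or not, the centre of that region lay at a median of 350 bp from the 5′ end of the element, and for 99.2% it lay within 1000 bp. Regions bound by KAP1 overlapped 1173 long L1Md_T with a median of 302 bp, 97.0% within 1000 bp. Regions of H3K9me3 that depended on KAP1 overlapped 642, with a median of 421 bp and a wider spread, 76.9% within 1000 bp. In L1Md_Gf of 5 kb or more, the centre of the H3K4me3 region lay at a median of 385 bp and within 1000 bp in 73 of 74. Among tested integrants of 5 kb or more, a KAP1 region covered 24.5% of L1Md_T and 73.6% of L1Md_A, and KAP1-dependent H3K9me3 covered 13.5% and 48.5%.

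**Figure D1:**
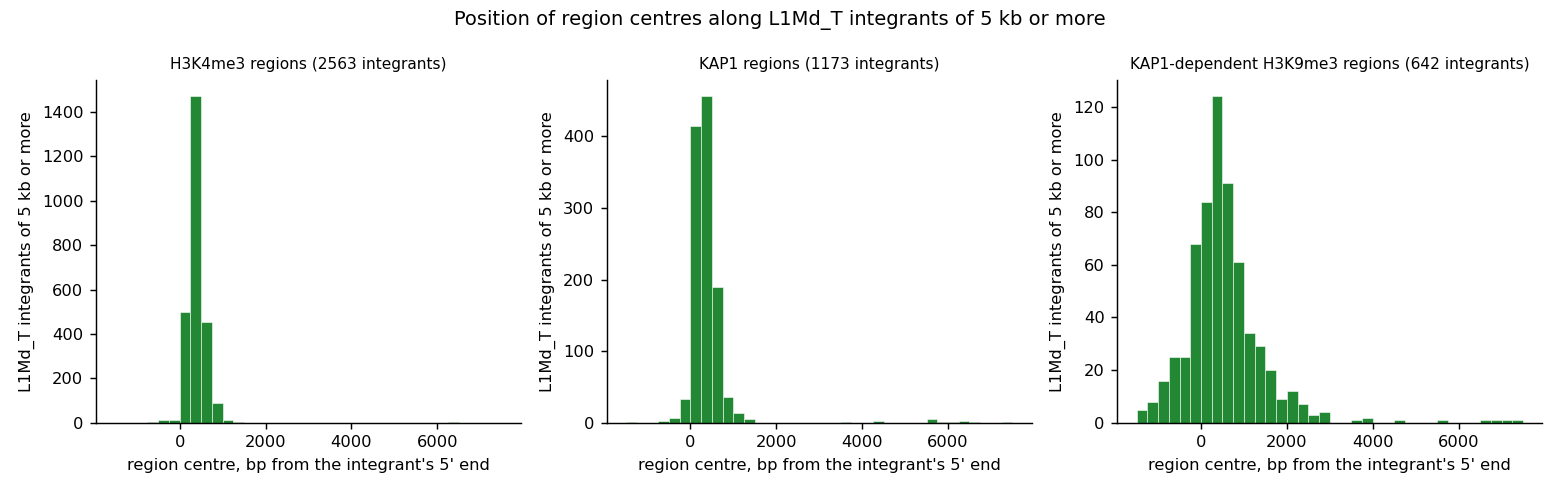
Number of L1Md_T integrants of 5 kb or more whose H3K4me3, KAP1 or KAP1-dependent H3K9me3 region is centred at each distance in bp from the 5′ end of the element, with 1 panel per kind of region. Medians are 350, 302 and 421 bp, and the centres of the H3K9me3 regions spread more widely, both upstream of the element and into it.

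L1Md_T with H3K4me3 carried the motif of the printed windows more often. Within the first 300 bases and on both strands, GCCATCTT (reverse complement AAGATGGC) stood in 62.1% of 4947 L1Md_T of 5 kb or more with reference sequence, in 87.1% of those with H3K4me3 (2217 of 2545) and in 35.6% of those without (854 of 2402). All but 1 of the 3071 matches were on the strand of the element. In L1Md_Gf of 5 kb or more the shares were 82.2% with H3K4me3 (60 of 73, exact 95% interval 71.5 to 90.2) and 63.2% without (24 of 38, 46.0 to 78.2), and these intervals overlap. The motif stood in 6.83% of tested L1Md_A of 5 kb or more, in 26.8% of the other tested TEs of that length and in 2.75% of 32851 RefSeq promoters of the same window length (GRCm38.p6). Of the 1918 such other TEs with it, 648 held it on their own strand and 1271 on the opposite strand. Where 2 or more copies stood in the window of an L1Md_T, 647 of 931 gaps between neighbours were 212 bp. The median number of CpG in the window was 18 in L1Md_T with H3K4me3 and 13 in those without. Length differed too. Tested L1Md_T of 5 kb or more had a median length of 6267 bp with H3K4me3 and 5774 bp without. For L1Md_Gf these medians were 5491 and 5215 bp. The length cut does not ensure an intact 5′ end, so in some integrants the window may lie outside the promoter, which was not tested.

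The hairpin acted in all lines, as the RNA of its target shows. Trim28 stood at 1991, 1639 and 1626 CPM (reads per 1000000 gene reads after TMM scaling) in WT shEmpty and at 190, 156 and 149 in WT shKAP1. In DNMT TKO it stood at 2085, 1819 and 1701 CPM and then at 327, 448 and 506, and in TET TKO at 1771 and 1898 and then at 163 and 168. The fall on the log2 scale was -3.41 in WT, -2.13 in DNMT TKO and -3.47 in TET TKO, so DNMT TKO cells kept the most Trim28 RNA. The summed level of 6 pluripotency genes fell from 3410 to 3643 CPM in WT shEmpty to 2154 to 2300 in WT shKAP1, and from 3578 to 3678 to 2338 to 2675 in DNMT TKO. In TET TKO it went from 3396 to 3560 CPM to 2643 to 2687. Summed 2-cell-like markers (5 genes) ranged over 13.2 to 25.1 CPM in WT shEmpty and 189 to 217 in WT shKAP1, 5.74 to 20.1 and 56.3 to 127 in DNMT TKO, and 8.56 to 9.69 and 560 to 576 in TET TKO. Markers of differentiated cells (6 genes) summed to 10.9 to 13.1 CPM in WT shEmpty and 20.0 to 23.5 in WT shKAP1, without overlap. In DNMT TKO they stood at 21.8 to 24.6 CPM with shEmpty, above WT shEmpty, and at 15.5 to 24.6 with shKAP1, and in TET TKO at 11.3 to 12.6 and then 16.4 to 16.5. The part of these shifts in the results on L1 was not tested, and in bulk RNA more cells that express an element cannot be told apart from more RNA per cell.

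L1Md_T RNA was high in WT cells with KAP1 present and low in both mutants. Its summed level was 2207, 1970 and 1961 CPM in the WT shEmpty libraries (2046 ± 140, mean ± SD, n = 3). It was 480, 432 and 456 CPM in DNMT TKO shEmpty (456 ± 24.0, n = 3), 22.3% of WT, and 825 and 1324 in TET TKO shEmpty (1074 ± 353, n = 2), 52.5% of WT. Neither mutant overlapped WT. L1Md_Gf followed the same order, with 108, 99.7 and 91.7 CPM in WT shEmpty. Its sums were 17.8, 18.2 and 15.9 CPM in DNMT TKO shEmpty, 17.4% of WT, and 39.1 and 36.3 in TET TKO shEmpty, 37.8% of WT.

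Knockdown of Kap1 brought the sums of the 3 lines close together. L1Md_T reached 2344, 2185 and 2228 CPM in WT shKAP1 (2252 ± 82.0), 1.10 times the shEmpty mean. Libraries of both hairpins overlapped in WT, although the sum rose in all 3 same-numbered pairs. It reached 1822, 2060 and 1747 CPM in DNMT TKO shKAP1 (1876 ± 164), 4.11 times shEmpty, and 2117 and 2065 in TET TKO shKAP1 (2091 ± 37.1), 1.95 times. After knockdown DNMT TKO stood at 83.3% and TET TKO at 92.8% of WT shKAP1. L1Md_Gf stood at 101, 91.5 and 90.2 CPM in WT shKAP1 (0.945 times, with overlap, and lower in all 3 pairs), at 66.6, 78.5 and 61.4 in DNMT TKO shKAP1 (3.97 times) and at 91.3 and 89.0 in TET TKO shKAP1 (2.39 times). A single integrant weighed on 1 of these means. L1Md_T at chr13:9831267-9837911, which overlaps mmu-mir-2134-4 on the same strand, held 13032 reads (489 CPM) in replicate 2 of TET TKO shEmpty and 652 (23.0 CPM) in replicate 1, and without it the TET TKO sum was 40.7% of WT and rose 2.52 times on knockdown. Sums depend on the scaling too. Against all TE reads in place of gene reads, the L1Md_T sum changed in WT by -0.32 on the log2 scale, while in DNMT TKO and TET TKO it still rose by 1.42 and 0.27.

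**Figure D2:**
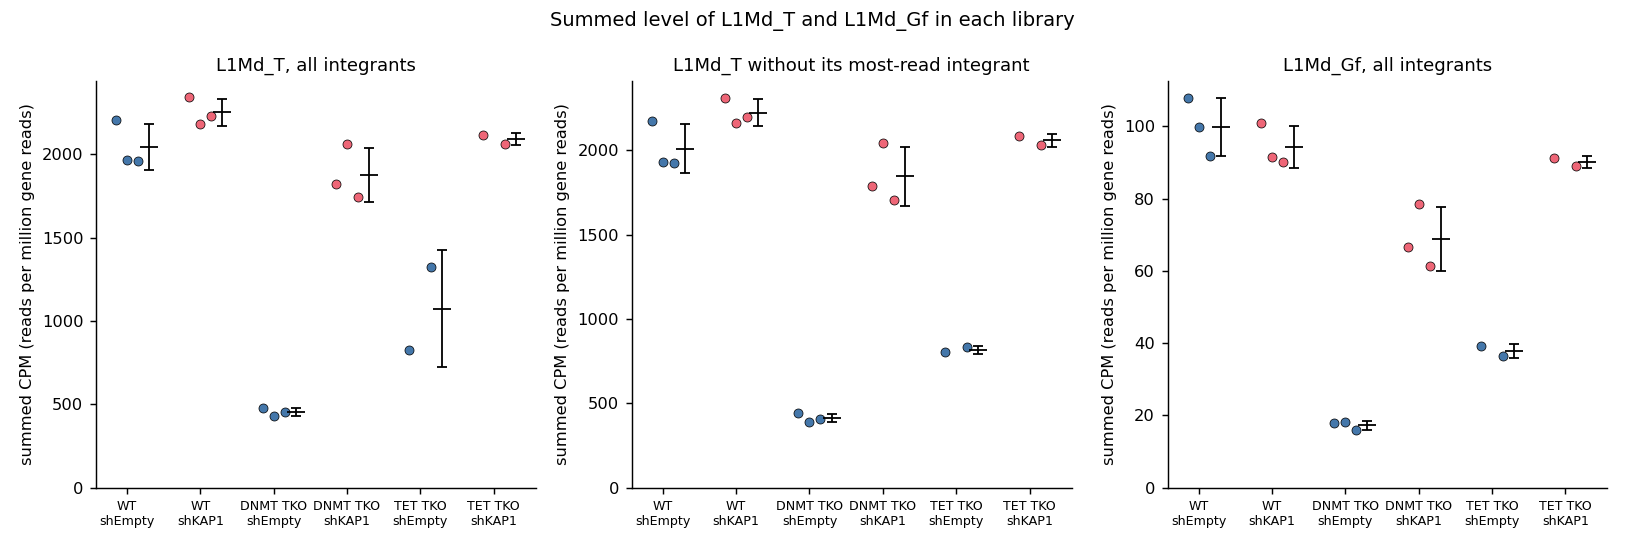
Summed level of all L1Md_T integrants, of L1Md_T without its most-read integrant and of all L1Md_Gf per library (CPM, reads per 1000000 gene reads), with 1 point per library (blue shEmpty, red shKAP1) and the mean ± SD of each group in black. DNMT TKO shEmpty libraries are the lowest, at 432 to 480 CPM for L1Md_T, and all shKAP1 libraries of L1Md_T lie between 1747 and 2344.

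The chromatin classes differed in which line and hairpin they were high. Long L1Md_T with H3K4me3 summed to a mean of 1148 CPM in WT shEmpty and 1045 in WT shKAP1, and these libraries overlapped, although the sum fell in all 3 same-numbered pairs (1245 to 1104, 1105 to 1013 and 1094 to 1019 CPM). In DNMT TKO they went from 151 to 681 CPM and in TET TKO from 406 to 846, with no overlap. Long L1Md_T without H3K4me3 went from 404 to 594 CPM in WT, and from 177 to 668 in DNMT TKO. In TET TKO this class, to which the integrant on chromosome 13 belongs, held 199 and 677 CPM with shEmpty and 663 and 656 with shKAP1, so its libraries overlapped through replicate 2 of shEmpty alone. The median level of a single long L1Md_T in WT shEmpty was 0.307 CPM with H3K4me3 and 0.108 without. In DNMT TKO shEmpty these medians were 0.0399 and 0.0372 CPM, and in DNMT TKO shKAP1 0.192 and 0.188, so that integrants with and without the mark in WT had like levels in this line. In TET TKO shEmpty they were 0.0927 and 0.0376 CPM, and in TET TKO shKAP1 0.223 and 0.167.

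DNMT TKO cells had many single integrants below the WT level with KAP1 present. A call required an adjusted p below 0.05 in edgeR's quasi-likelihood test and a change of at least 2-fold. In DNMT TKO against WT with shEmpty, 2511 of 6515 L1Md_T were lower and 42 higher, and 139 of 305 L1Md_Gf were lower and 0 higher. Together these were 38.9% lower and 0.616% higher, against 6.45% and 3.48% of all TEs tested. The median change of L1Md_T was -2.19 on the log2 scale and of L1Md_Gf -2.48, where the median of all TEs was -0.13. For 1233 of the L1Md_T and 67 of the L1Md_Gf at least 1 of both groups had no read, and with these at the bound that a floor of 3 reads per group allows the medians were -1.79 and -2.10. Among long L1Md_T, 1391 of 2157 with H3K4me3 (64.5%) and 477 of 2090 without (22.8%) were lower. The mark was mapped in WT, where the median level with shEmpty was 0.307 CPM with it and 0.108 without. A call below WT is easier to reach from a higher WT level, and the part of this in the shares was not tested. The genes of chromosomes 6, 8 and 11 had median changes of -0.29, -0.18 and 0.29 in DNMT TKO against WT. Without these chromosomes 2292 members were lower and 34 higher. The median of members per chromosome ran from -2.50 to -1.95 over all chromosomes, with chromosome 11 at the upper end, and to -2.05 without those 3.

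TET TKO cells showed a smaller shift in the same direction. Against WT with shEmpty, 997 L1Md_T were lower and 32 higher, and 42 L1Md_Gf were lower and 1 higher. That made 15.2% lower and 0.484% higher, against 2.33% and 1.74% of all TEs. Medians were -1.35 for L1Md_T and -1.54 for L1Md_Gf on the log2 scale (-1.08 and -1.25 with groups without reads at their bound), and -0.06 for all TEs. With DESeq2 469 of both subfamilies were lower, and with at least 1 read 595. Of long L1Md_T, 647 of 2157 with H3K4me3 and 163 of 2090 without (7.80%) were lower. Here too the mark went with a higher level in WT, from which a call of lower is easier to reach. With 2 libraries per group, each one weighed on the count, which was 1072 in both directions and 442 without replicate 1 or 479 without replicate 2 of TET TKO shEmpty.

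Kap1 knockdown in WT changed few of these integrants. In L1Md_T 569 rose and 159 fell, and in L1Md_Gf 15 rose and 12 fell. With DESeq2's Wald test, which left 1388 of the 6820 without an adjusted p, 299 of both subfamilies rose and 60 fell, and with all integrants of at least 1 read 357 rose and 95 fell. The edgeR shares over both, 8.56% up and 2.51% down, stood against 12.1% and 2.05% of all TEs. Their median was 0.23 for L1Md_T and -0.03 for L1Md_Gf on the log2 scale, and 0.23 for all TEs. Long L1Md_T with H3K4me3 went both ways, with 129 up and 99 down and a median of -0.17. Of those without the mark 225 rose (10.8%, below the share of all TEs) and 15 fell, with a median of 0.57. Within genes 9.01% of members on the strand of the gene and 8.16% on the opposite strand rose, and outside genes 8.58%.

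The share of long L1Md_T that rose in WT was larger where a region of KAP1, or of H3K9me3 that depends on it, overlapped. Of long L1Md_T, 183 of 1039 with a KAP1 region rose (17.6%) and 171 of 3208 without one (5.33%). With KAP1-dependent H3K9me3, 166 of 572 rose (29.0%), 4 fell and the median was 1.18, while of 3675 without it 188 rose (5.12%), 110 fell and the median was 0.06. Where H3K4me3 and KAP1-dependent H3K9me3 regions overlapped the same long L1Md_T, 56 of 153 rose and 3 fell. Where H3K4me3 stood without KAP1, 31 of 1569 rose and 62 fell. Of all TEs tested 12.1% rose and 2.05% fell. Long L1Md_T without a KAP1 or H3K9me3 region thus rose less often than all TEs. Other TEs with such regions were not compared, so the split is not shown to be particular to L1Md_T. The regions used here are the sets that the authors counted 5hmC over.

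In DNMT TKO cells the same knockdown raised these elements widely. In L1Md_T 2625 rose and 6 fell, and in L1Md_Gf 110 rose and 1 fell. Over both subfamilies 40.1% rose and 0.103% fell, against 15.0% and 0.944% of all TEs. The median change was 2.08 for L1Md_T and 2.01 for L1Md_Gf (1.77 and 1.59 with groups without reads at their bound), and 0.27 for all TEs. With DESeq2 1587 of both subfamilies rose, and with all integrants of at least 1 read 1743. The rise did not split by the mark, as 1020 long L1Md_T with H3K4me3 (47.3%) and 986 without (47.2%) were called up. Of long L1Md_T, 605 of 1039 with a KAP1 region (58.2%) and 1401 of 3208 without one (43.7%) rose. The paper describes no map of KAP1 in DNMT TKO cells, and it allows that binding may have gone undetected at some loci.

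TET TKO cells came between. On knockdown 1075 L1Md_T rose and 17 fell, and 43 L1Md_Gf rose and 2 fell. These were 16.4% up and 0.279% down, against 14.7% and 0.971% of all TEs, so the share that rose was near that of all TEs while the median, 1.31 for L1Md_T and 1.17 for L1Md_Gf (1.11 and 0.97 at the bound), was above the 0.33 of all TEs. With DESeq2 473 of both subfamilies rose, and with at least 1 read 609. Long L1Md_T without H3K4me3 rose in 22.2% of cases and those with it in 16.3%. The count of both directions was 1137, and it fell to 580 without replicate 1 and 644 without replicate 2 of TET TKO shEmpty, and to 729 without replicate 1 of TET TKO shKAP1.

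**Figure D3:**
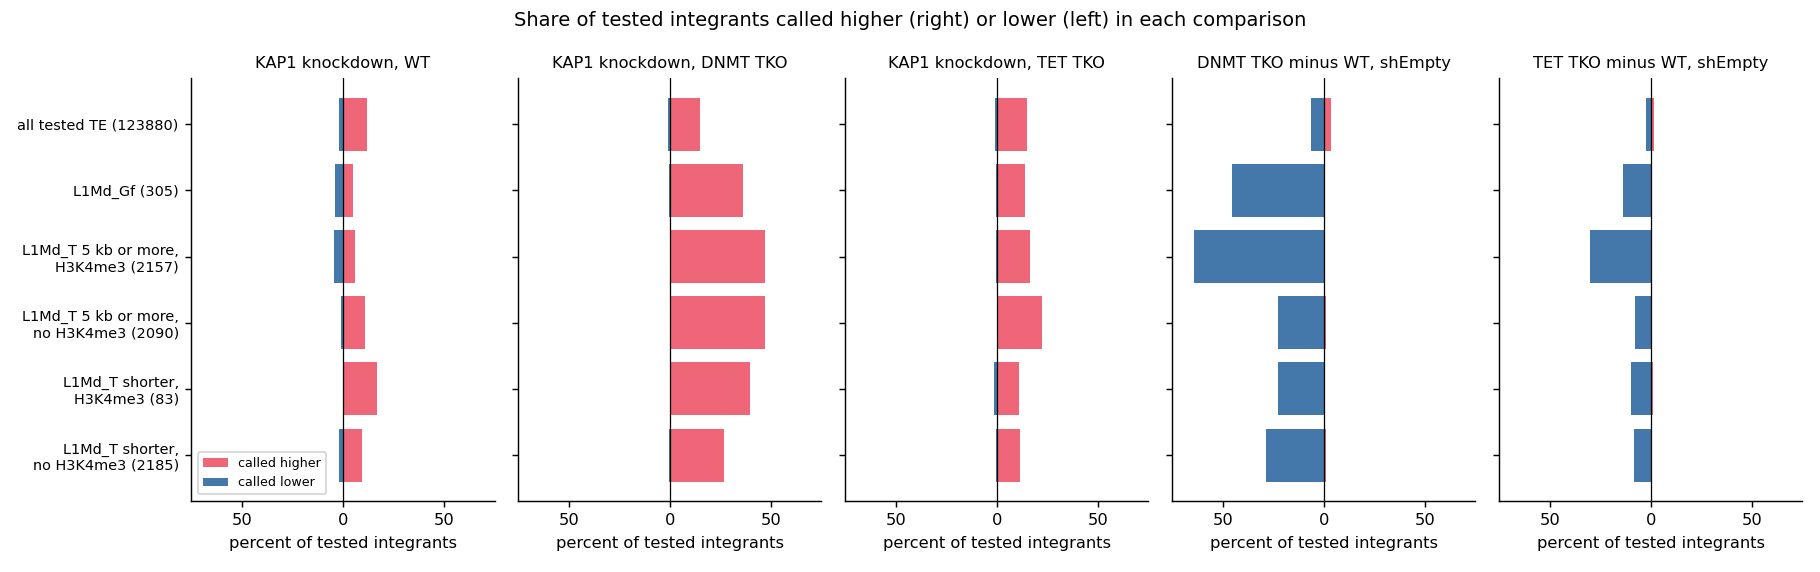
Percent of tested integrants called higher (bars to the right) or lower (bars to the left) in 5 comparisons, for L1Md_Gf and for L1Md_T split by length and H3K4me3, with all TEs tested for reference and the number tested in brackets. In DNMT TKO against WT, long L1Md_T with H3K4me3 are lower in 64.5% of cases and long ones without it in 22.8%.

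The knockdown effect itself differed between lines. It was larger in DNMT TKO than in WT for 833 integrants and smaller for 4, which is 12.2% and 0.0587%, against 1.33% and 0.473% of all TEs. Of these, 786 and 3 were L1Md_T and 47 and 1 L1Md_Gf. In long L1Md_T 493 with H3K4me3 and 154 without had a larger effect. Without replicate 2 of DNMT TKO shEmpty the total of 837 was 551. In TET TKO the effect was larger than in WT for 201 and smaller for 12 (2.95% and 0.176%, against 0.831% and 0.243% of all TEs). That total of 213 was 107 and 106 without replicate 1 or 2 of TET TKO shEmpty, and 133 and 140 without replicate 1 or 2 of TET TKO shKAP1. With DESeq2, which left 4197 and 5783 members without an adjusted p, the effect was larger for 489 in DNMT TKO and 79 in TET TKO, and with at least 1 read for 484 and 98. Both comparisons use the WT libraries, so their counts are not independent. They also use the shEmpty libraries that gave the differences from WT without knockdown. A low level in a mutant with shEmpty enters that difference, the rise on knockdown and the larger effect, so these results are not independent.

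The knockdowns of the 3 lines share no library, and their lists are set side by side here. Same-numbered WT and DNMT TKO libraries deviated together over genes, so the lists of these lines are not independent. Of 584 integrants that rose in WT and 2735 that rose in DNMT TKO, 381 were shared, 65.2% of the first and 13.9% of the second, where 40.1% of all tested members rose in DNMT TKO and 8.56% in WT. WT and TET TKO shared 251, 43.0% of the 584 and 22.5% of the 1118 of TET TKO, where 16.4% of all tested members rose in TET TKO. DNMT TKO and TET TKO shared 671, 24.5% and 60.0% of their lists, and these shares were not tested against those of all members.

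The motif and the CpG of the first 300 bases moved with the drop in DNMT TKO. Of tested long L1Md_T with reference sequence, 1605 of 2649 with GCCATCTT (60.6%) and 256 of 1563 without (16.4%) were lower in DNMT TKO than in WT with shEmpty. With both H3K4me3 and the motif 1300 of 1885 were lower (69.0%), with H3K4me3 alone 89 of 259 (34.4%), with the motif alone 305 of 764 (39.9%) and with neither 167 of 1304 (12.8%). By the number of CpG in the window, the share lower was 20.2% at 0 to 7, 24.4% at 8 to 11, 38.0% at 12 to 15, 54.3% at 16 to 19 and 51.1% at 20 to 23. The last bin, 24 or more, held 28 integrants and had 39.3%. The median difference varied less than these shares, at -1.81, -1.66, -1.94, -2.55, -2.57 and -2.56 on the log2 scale from the first bin to the last. The share with H3K4me3 moved with these bins, from 2.56% at 0 to 7 CpG to 79.3% at 20 to 23, and its part was not tested. Nor was that of the WT level, which was higher with H3K4me3 and makes a call below WT easier to reach. The part of truncation at the 5′ end, which the length cut does not exclude, was not tested either.

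The letters beside the motif went with the same differences. Of 1191 long integrants with window 1, 98.7% overlapped H3K4me3, and of tested L1Md_T among them 808 of 1023 (79.0%) were lower in DNMT TKO than in WT, with a median of -3.13 on the log2 scale. Window 2, which differs from window 1 after the motif, gave 98.0% with H3K4me3 and 76.8% lower (median -3.07). Window 3 gave 61.3% and 38.6% (112 of 290, median -2.09), and window 4 gave 69.5% and 72.2% (114 of 158, median -2.74). On knockdown in WT, 1.08%, 1.52%, 6.21% and 0.633% of L1Md_T with windows 1, 2, 3 and 4 rose, with medians of -0.38, -0.31, 0.26 and -0.34. Integrants that share a window share descent as well, so they are not independent, and no test was made between windows. The level in WT, which was higher with the mark, bears on calls below WT here too. The study's methods state no filter for unique reads in the peaks. Copies with like letters may thus share reads there, which was not tested. Of 1877 long L1Md_T without the motif on the strand of the element, 321 (17.1%) held other letters beside a flank of window 1, most often GCCATCTG (204, of which 75.5% overlapped H3K4me3) and ACCATCTT (44, of which 52.3% did).

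**Figure D4:**
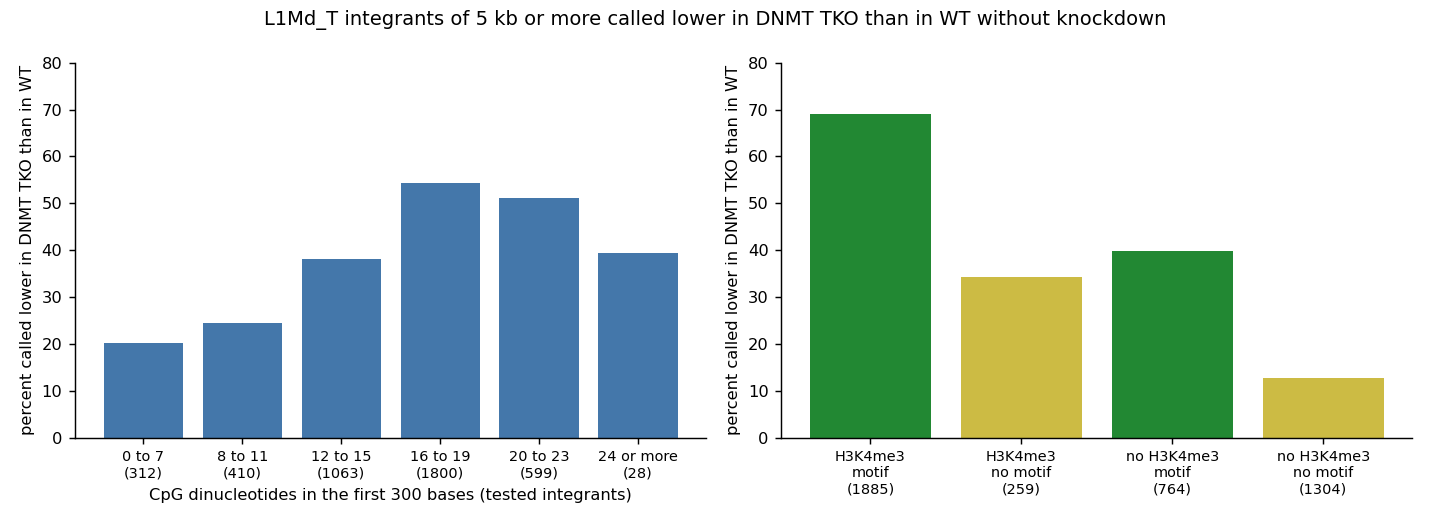
Percent of tested L1Md_T of 5 kb or more that were lower in DNMT TKO than in WT with shEmpty, by the number of CpG in the first 300 bases and by H3K4me3 and motif. The share runs from 20.2% at 0 to 7 CpG to 54.3% at 16 to 19, and from 12.8% with neither feature to 69.0% with both.

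Among L1Md_T with 100 reads or more, the largest fitted rise in both mutants was that at chr6:124564395-124566918, 2524 bp long and on the opposite strand within C1s, a gene of the complement system. It had 0, 1 and 2 reads in WT shEmpty and 146, 341 and 292 (7.65, 14.8 and 15.6 CPM) in WT shKAP1, a ratio of 317 (counting interval 108 to 1540). In DNMT TKO it had 0, 2 and 1 reads and then 633, 726 and 734, a ratio of 754 (258 to 3657). In TET TKO it had 1 and 0 reads and then 286 and 289, a ratio of 770 (138 to 30458). It was thus nearly silent in every shEmpty library and read in every shKAP1 library. No region of H3K4me3, KAP1 or KAP1-dependent H3K9me3 overlapped it. C1s itself changed on knockdown by 1.53 on the log2 scale in WT, 0.64 in DNMT TKO and 1.20 in TET TKO.

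Long integrants differed in where and when they were read. L1Md_T at chr6:141526555-141533003, 8314 bp from Slco1c1, which encodes an organic anion transporter, had 1.94, 1.14 and 1.42 CPM in WT shEmpty and 9.80, 8.75 and 10.0 in WT shKAP1. In DNMT TKO it had 3.66, 1.52 and 2.00 and then 33.0, 23.2 and 24.5 CPM, and in TET TKO 4.05 and 4.39 and then 26.3 and 24.0. It carries both H3K4me3 and the motif, and without knockdown DNMT TKO differed from WT by 0.67 ± 0.20 on the log2 scale, with no call. No KAP1 or KAP1-dependent H3K9me3 region overlapped it. It rose in every line, by 2.69 ± 0.19 (SE), 3.51 ± 0.19 and 2.57 ± 0.21 on the log2 scale (edgeR adjusted p 2.42e-43, 1.38e-77 and 2.67e-31).

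L1Md_Gf at chr14:41359893-41366432 had 2.00, 2.31 and 1.63 CPM in WT shEmpty, 0.102, 0.104 and 0.154 in DNMT TKO shEmpty and 0.564 and 0.601 in TET TKO shEmpty. With shKAP1 it had 1.36, 1.47 and 1.65 CPM in WT, 0.816, 1.69 and 0.779 in DNMT TKO and 1.39 and 1.39 in TET TKO. It was low without knockdown in both mutants. With knockdown TET TKO stood within the WT shKAP1 range, and in DNMT TKO 1 library stood above that range and the others below it. The DNMT TKO difference from WT without knockdown was -3.98 ± 0.40 on the log2 scale (edgeR adjusted p 1.31e-20), and the knockdown effect was 3.52 ± 0.52 larger in DNMT TKO than in WT (adjusted p 1.32e-08). Both values use the shEmpty libraries of these lines and are not independent.

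L1Md_T at chr15:71480785-71486541 had 18, 16 and 11 reads in WT shEmpty, 0 in all 3 DNMT TKO shEmpty libraries and 10, 14 and 13 in DNMT TKO shKAP1. It was at least 15.0-fold lower in DNMT TKO than in WT with shEmpty and at least 13.3-fold higher in DNMT TKO with the knockdown. In TET TKO it stayed at 1 or 2 reads in all libraries. L1Md_T at chr16:36223105-36229300 had 0 reads in WT shEmpty and 35, 22 and 9 in WT shKAP1, at least 26.9-fold higher. It rose in the mutants too, from 1, 1 and 1 to 13, 21 and 28 reads in DNMT TKO and from 0 and 0 to 6 and 10 in TET TKO. A KAP1 region overlapped this integrant and the one on chromosome 15, and a KAP1-dependent H3K9me3 region neither.

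**Figure D5:**
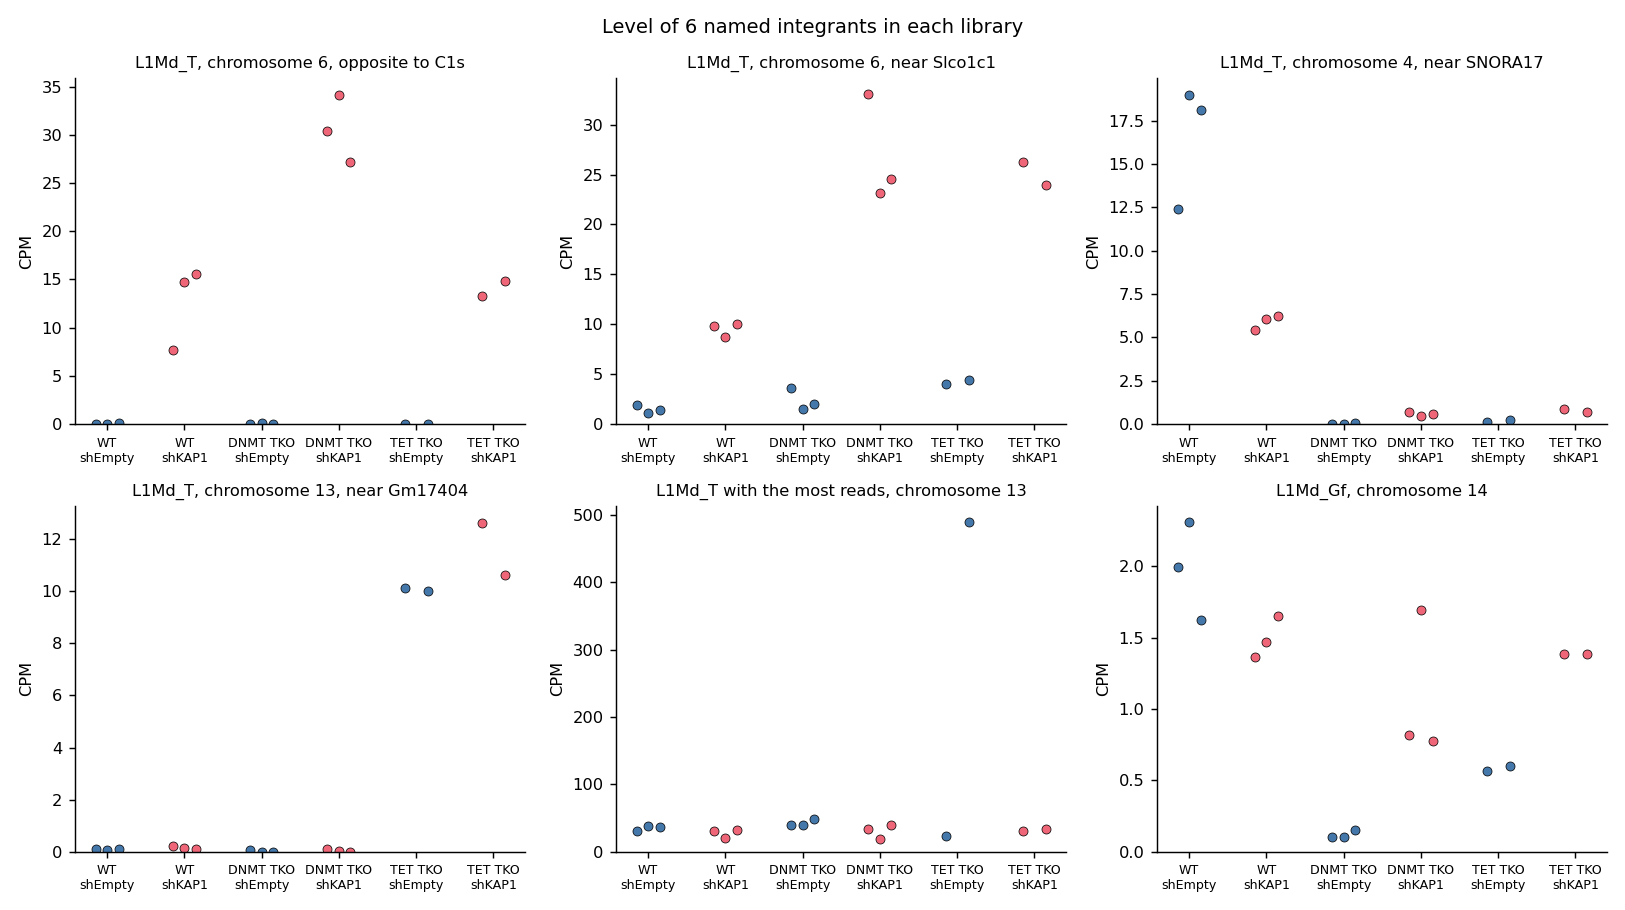
Level per library (CPM, linear axis with its own range in each panel) of 5 L1Md_T integrants and 1 L1Md_Gf integrant in the 6 groups, with 1 point per library (blue shEmpty, red shKAP1). The integrant within C1s is near 0 in all shEmpty libraries and at 7.65 to 34.1 CPM in the shKAP1 libraries.

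Some integrants were read mostly in WT or in 1 mutant, and whether every line carries them was not tested. L1Md_T at chr4:90653436-90658422 had 224, 534 and 512 reads (12.4, 19.0 and 18.1 CPM) in WT shEmpty, 0, 0 and 1 in DNMT TKO shEmpty and 4 and 6 in TET TKO shEmpty. On knockdown it fell in WT to 103, 140 and 117 reads, and rose to 15, 10 and 15 in DNMT TKO and to 19 and 13 in TET TKO, the last a call lost with limma voom (2.02). The integrant that abuts it, chr4:90658423-90659418, was at least 51.1-fold lower in DNMT TKO and 37.7-fold lower in TET TKO than in WT. L1Md_T at chr13:66882981-66886614 had 287 and 267 reads in TET TKO shEmpty and 273 and 207 in TET TKO shKAP1, but 0 to 4 in every library of the other lines. L1Md_T at chr1:100287468-100288463 had 26, 38 and 48 reads in DNMT TKO shEmpty, at least 37.2-fold more than the 0 of WT, a call lost with DESeq2 (7.62 on the log2 scale). It held 16, 5 and 0 reads in DNMT TKO shKAP1 and none in any library of WT or TET TKO.

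Other members rose with the knockdown in some lines. L1Md_T at chr12:19839096-19839681, 586 bp long, had 0 reads in WT shEmpty and 51, 73 and 40 in WT shKAP1, at least 66.7-fold higher. It went from 0 and 1 to 51 and 41 reads in TET TKO and held 1 read in all 6 libraries of DNMT TKO together. No KAP1 or KAP1-dependent H3K9me3 region overlapped it. L1Md_Gf at chr7:32806189-32808633 had 0 reads in TET TKO shEmpty and 90 and 73 in TET TKO shKAP1, at least 72.7-fold higher, and rose by 2.22 ± 0.60 in WT and 3.39 ± 0.93 in DNMT TKO on the log2 scale. This integrant overlapped no such region either. L1Md_T at chrX:77100430-77107510, which overlaps regions of H3K4me3, KAP1 and KAP1-dependent H3K9me3, rose by 3.70 ± 0.56 in WT, 3.11 ± 0.63 in DNMT TKO and 2.28 ± 0.70 in TET TKO. The last call was lost without replicate 1 of TET TKO shEmpty (1.99) or replicate 2 of TET TKO shKAP1 (2.13) and with DESeq2 (2.35), and that of the chromosome 7 integrant in DNMT TKO without replicate 1 of shKAP1 (2.56). L1Md_T at chr6:104014465-104020556 had 5, 17 and 25 reads in WT shEmpty, none in TET TKO shEmpty and 8 and 6 in TET TKO shKAP1, at least 6.25-fold higher. A KAP1 region overlapped it, and no KAP1-dependent H3K9me3 region did. L1Md_T at chr4:8318688-8319772, with KAP1 and KAP1-dependent H3K9me3, had 0, 1 and 0 reads in WT shEmpty and 17, 11 and 13 in WT shKAP1. In TET TKO it was read with both hairpins, 17 and 10 and then 7 and 9 reads.

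The other named L1Md_Gf integrants differed among themselves. No KAP1-dependent H3K9me3 region overlapped those given here. KAP1 regions overlapped those on chromosomes 3, 12, 13, 14 and X, but not those on chromosomes 4, 5 and 18. The 2 with the most reads, chr3:43357508-43362399 and chr14:43164914-43166643, differed from WT by -3.0 and -2.96 on the log2 scale and rose by 2.06 ± 0.33 and 2.30 ± 0.37 on knockdown in DNMT TKO. Their changes in WT were -0.25 ± 0.25 and 0.05 ± 0.27 and passed no test. L1Md_Gf at chr18:72736480-72742309, chr12:14000001-14005275 and chr13:77708556-77714405 fell in WT, with changes of -2.43, -1.39 and -1.91, and rose in DNMT TKO, by 2.48, 2.29 and 3.04. In that order they were chosen for the largest fall in WT, the lowest DNMT TKO level against WT and the largest gain in effect. Their opposite directions thus follow in part from the choice. L1Md_Gf at chrX:125963174-125967011 rose by 4.90 ± 0.78 in DNMT TKO, from 1, 0 and 0 reads to 8, 20 and 10. L1Md_Gf at chr4:144439131-144441266 rose in WT by 3.63 ± 0.77 and in TET TKO by 5.38 ± 0.69. In DNMT TKO it had 0 reads with shEmpty and 5 with shKAP1, all in replicate 3, at least 1.80-fold higher. The fitted rise there, 3.85 ± 1.45, depends on the prior count of the fit and was 0 without that replicate. Its call was lost without any 1 of the shEmpty libraries (3.83 to 3.86), and with the replicate block (3.8), limma voom (1.19) or DESeq2 (3.23). L1Md_Gf at chr5:78052607-78058073 rose in TET TKO by 3.65 ± 1.03, a call lost without replicate 1 of shEmpty (2.79) or of shKAP1 (3.16) and with DESeq2 (4.00). Some other calls were lost when 1 library was left out. The rise of the chromosome 18 integrant in DNMT TKO was lost without shEmpty replicate 2 (1.86), shEmpty replicate 3 (1.94) or shKAP1 replicate 1 (2.01), and with limma voom (2.26) or DESeq2 (2.68). That of the chromosome 12 integrant was lost without the same libraries (2.18, 1.73 and 2.08) and with DESeq2 (2.43). The falls in WT were lost for the chromosome 12 integrant without shKAP1 replicate 2 (-1.05) and for the chromosome 13 integrant without shEmpty replicate 2 (-1.32) or with limma voom (-1.64).

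Falls on knockdown were few in the mutant lines, and in WT their share was near that of all TEs. L1Md_T at chr6:68787145-68788100 fell in all lines, with changes of -3.55 ± 0.65 in WT, -1.83 ± 0.60 in DNMT TKO and -2.83 ± 0.68 in TET TKO on the log2 scale. L1Md_T at chr14:42532089-42535897, on the strand of 1700024B05Rik and within it, went from 55 and 69 reads to 1 and 0 in TET TKO. Its host fell in every line, with changes of -3.48 in TET TKO, -3.46 in WT and -2.455 in DNMT TKO. L1Md_Gf at chr4:50540903-50546330 fell in TET TKO (-4.18 ± 0.93), and 26 of its 29 reads in shEmpty came from replicate 2, without which the call was lost (-1.90), as it was with DESeq2 (-4.47). The call on chromosome 6 was lost in DNMT TKO without shEmpty replicate 1 (-1.30) or shKAP1 replicate 2 (-1.53) and with limma voom (-1.57) or DESeq2 (-1.92), and in TET TKO without shKAP1 replicate 1 (-2.20). L1Md_Gf at chr15:100406650-100406695, 46 bp within an exon of Pou6f1 and on its strand, fell in DNMT TKO (-2.19 ± 0.33), where Pou6f1, a POU domain transcription factor, changed by -2.18. Reads on such members cannot be told apart from reads of their host.

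Of 45 listed genes known to act on L1, 42 were tested. On knockdown in WT, 3 rose and 3 fell, against 10.8% and 6.54% of all genes. Suv39h1, an H3K9 methyltransferase, the de novo methyltransferase Dnmt3a and Tet3 rose, and Trim28, Tex19.1, which restrains L1 in germ cells, and Sox2 fell. In DNMT TKO Tex19.2 rose and Trim28 fell, where 10.1% and 2.42% of all genes did, and in TET TKO Dnmt3a rose and Trim28 fell (8.05% and 4.46% of all genes). Yy1, which encodes the factor that binds the letters searched for in the windows, stood at 131, 124 and 123 CPM in WT shEmpty and at 111 to 135 in every library of every group. Without knockdown, where 8.23% of all genes were higher and 8.05% lower in DNMT TKO than in WT, Tex19.1 and Tex19.2 were higher, by 1.22 and 1.32, and the 3 targeted Dnmt genes were lower, with differences of -1.65, -3.04 and -2.64. In TET TKO, where 5.66% and 4.80% of all genes were higher and lower, Tex19.2 was higher by 1.05 and Tet1 and Tet2 were lower (-1.49 and -2.16), while the RNA of Tet3 changed by -0.03 ± 0.16.

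Of the 5hmC libraries of WT cells, 1 replicate per hairpin was used here, so no difference was tested. In the 1674 KAP1 regions that hold a member, 5hmC reads over input had a median of 0.39 on the log2 scale with shEmpty and 0.89 with shKAP1, and 74.1% of regions were higher with shKAP1. In KAP1 regions without one 77.4% were higher. Regions of KAP1-dependent H3K9me3 with a member had a median change of 0.38 against 0.68 in those without. H3K4me3 regions that hold a member stood at -0.12 with shEmpty and those that hold neither subfamily at -1.66. Regions with a member thus held more 5hmC reads over input than other H3K4me3 regions in this library. The change depends on the scaling, as 55.3% in place of 74.1% of the KAP1 regions with a member were higher when libraries were scaled to reads in H3K4me3 regions. For regions of KAP1-dependent H3K9me3 with a member that scaling turned the direction, with 49.6% in place of 73.2% higher. The study's methods state no filter for unique reads in these libraries either. Reads of like copies may thus fall on regions with a member, which was not tested.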

How the data were processed

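The members, lists and tests were chosen with earlier results of these data known. The authors deposited raw read counts per gene (featureCounts, stranded) and per TE integrant (bedtools), of unique reads aligned to mm9 with HISAT2 2.0.1, counts of hMeDIP reads over region sets, and H3K4me3 peaks with a score per replicate, called with MACS 1.4 after Bowtie2 2.2.1. Only unique RNA reads were counted, so the youngest, most alike copies are undercounted. For the peaks the study's methods state no such filter, so overlaps of like copies may rest on reads that fit several of them. This was not tested. Exon-embedded TEs on the strand of the exon held 317 reads per kb and those opposite to it 3.06, so counts follow strand.

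All 16 RNA libraries entered 1 fit of 6 groups in edgeR 4.0.16 (quasi-likelihood, robust), with TE library sizes and TMM factors taken from the gene counts, a filter of 16 reads over all libraries, and Benjamini-Hochberg adjustment over all 123880 TEs per contrast. The study's own tool, limma voom (limma 3.58.1), and DESeq2 1.42.0 were alternatives. The fit was tried on simulated counts with changes only in integrants of many reads, so this does not cover members with few reads. Folds against a group without reads are bounds at a floor of 3 reads over the group. Counting and exact intervals are of 95% and cover counting error only. Overlaps were of at least 1 bp (bedtools 2.31.1). In 5hmC regions a pseudocount of 1 read and a filter of 10 input reads applied.

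Named integrants were, per subfamily and contrast, the called one with the largest rise and fall among those of 100 reads or more, the 3 with the most reads, and the long ones with and without H3K4me3 that changed most in the WT knockdown. Fam208a and Ago2 of the gene list had no entry and Trex1 too few reads. Sequence was available for 23296 members, while 918 lie on contigs not used here. Alternatives covered scaling, filters, tools, replicate block, length, peaks and each library left out. The sum without its most-read integrant and the sums without each library were chosen after seeing the data. hMeDIP replicate 2 was not used, because its labels and file names disagree. Same-numbered libraries of WT and DNMT TKO deviated together over genes (correlations 0.238 to 0.418 between hairpins in WT, 0.179 to 0.520 in DNMT TKO and 0.244 to 0.446 between both lines with shEmpty), so the numbers pair these libraries. This comes from the values, not from labels. In TET TKO the correlation between hairpins over genes was -0.039, and over members in WT it was 0.067 to 0.143. The main fit did not use the pairs, and the replicate block was an alternative.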

Additional observations from a re-analysis of the deposited data

Results flagged for a closer look

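The knockdown effect was tested for a difference between each mutant and WT in the same edgeR fit. It was larger in DNMT TKO for 833 integrants and smaller for 4, and larger in TET TKO for 201 and smaller for 12. Groups of 2 or 3 libraries are too small for a test of single outlying samples. The effects use the shEmpty libraries that also gave the differences from WT without knockdown, so they are not independent of those.

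Of the named L1Md_T, the effect in DNMT TKO exceeded that in WT by 7.68 at chr15:71480785-71486541 and by 6.45 at chr4:90653436-90658422, and differed by -10.78 at chr12:19839096-19839681, a call lost without replicate 2 of DNMT TKO shEmpty (-8.95), which held the only DNMT TKO read. In TET TKO it exceeded WT by 6.32 at chr6:104014465-104020556 and by 3.55 at chr4:90653436-90658422, and differed by -5.51 at chr4:8318688-8319772 and by -5.27 at chr14:42532089-42535897. The call at chr6:104014465-104020556 was lost without replicate 1 of TET TKO shEmpty (6.30). All are differences of log2 changes, and those with a group at 0 reads depend on the prior count of the fit.

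Of the named L1Md_Gf, the effect in DNMT TKO was larger than in WT by 4.94 at chr13:77708556-77714405, 4.91 at chr18:72736480-72742309, 4.61 at chrX:125963174-125967011, 3.68 at chr12:14000001-14005275, 3.52 at chr14:41359893-41366432, 2.31 at chr3:43357508-43362399 and 2.25 at chr14:43164914-43166643. It differed by -1.91 at chr15:100406650-100406695, inside an exon of Pou6f1, a call lost without replicate 1 of DNMT TKO shKAP1 (-1.48). In TET TKO the effect was larger by 7.32 at chr7:32806189-32808633, a call lost without replicate 3 of WT shEmpty (6.49).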

How the results depend on the processing

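Counts of called integrants depend on the tool and the filter on reads, and the direction of each comparison did not turn under them. With DESeq2's Wald test the counts, both directions together, were 359 in place of 755 for the WT knockdown, 1589 in place of 2742 in DNMT TKO, 477 in place of 1137 in TET TKO, 489 in place of 1072 for TET TKO against WT, and 492 in place of 837 and 86 in place of 213 for the knockdown effects of DNMT TKO and TET TKO. DESeq2 left 1012 to 5783 of the 6820 members without an adjusted p, depending on the comparison, and these are not among its calls. With all integrants of at least 1 read they were 452, 1746, 618, 619, 487 and 107 in that order, and with at least 50 reads, which tests fewer integrants, 467 for the WT knockdown, 737 in TET TKO and 100 for the TET TKO effect, which was 127 with limma voom. With each library left out in turn they ranged from 587 to 670 in WT, 1880 to 2373 in DNMT TKO, 580 to 776 in TET TKO, 1992 to 2352 for DNMT TKO against WT, 442 to 857 for TET TKO against WT, 551 to 800 and 106 to 210 for the effects. Where a TET TKO group is left with 1 library, that library is assumed to vary like the other groups. The replicate block gave 695 calls in WT, 2619 in DNMT TKO and 1065 in TET TKO and changed no count by over 1.5 times. With library sizes from TE counts the log2 change of the L1Md_T sum was -0.32 in place of 0.14 in WT, 1.42 in place of 2.04 in DNMT TKO and 0.27 in place of 0.96 in TET TKO, and of L1Md_Gf -0.54, 1.36 and 0.55. Without 1 library these sums ranged from 0.11 to 0.20, 1.97 to 2.09 and 0.66 to 1.34 for L1Md_T, and -0.14 to -0.02, 1.88 to 2.07 and 1.21 to 1.31 for L1Md_Gf. H3K4me3 shares of L1Md_T and L1Md_Gf were 37.7% and 59.0% with the peaks of replicate 2, 14.9% and 24.6% with peaks above the median score in both replicates, and 12.1% and 27.7% over all integrants, tested or not. The share of shorter members with H3K4me3 that rose in WT was 5.84% in place of 11.6% with a length limit of 6 kb. Scaling to H3K4me3 reads left 55.3% of KAP1 and 49.6% of H3K9me3 regions with higher 5hmC. The cause of these moves was not tested. Of the calls on named integrants, 84 of 92 were kept with limma voom, 91 with the block and 78 of 91 with DESeq2, which gave 1 of the 92 no adjusted p. Reads are few per integrant, so a change not called here may still be present.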

Other observations

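L1Md_A, the young L1 subfamily with little H3K4me3, had another order of levels. Its tested integrants summed to a mean of 234 CPM in WT shEmpty, 392 in DNMT TKO shEmpty and 127 in TET TKO shEmpty, and to 597, 1459 and 890 CPM with shKAP1. The lower level in TET TKO was shared. There L1Md_A with shEmpty stood at 54.2% of WT, and L1Md_T at 52.5%, or 40.7% without its most-read integrant. On knockdown in TET TKO the L1Md_A sum rose 7.00 times. In DNMT TKO against WT with shEmpty, 524 of 3778 L1Md_A were higher and 150 lower, where L1Md_T had 42 higher and 2511 lower. On knockdown in WT 18.4% of L1Md_A rose.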
